A study of Mus musculus with 8 samples.

Results

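Liver carboxylesterases of the Ces1, Ces2 and Ces3 subfamilies were compared between obese aged mice with and without dietary DHA. The members are 10 genes, Ces1b, Ces1c, Ces1d, Ces1e, Ces1f, Ces1g, Ces2a, Ces2e, Ces3a and Ces3b, taken by gene symbol from the 56884 genes counted, among which 20 carboxylesterase genes were found by name. Poly(A) RNA was sequenced from the livers of 3 mice of the DIO group (replicates 1, 4 and 5) and 5 mice of the DIO + DHA group (replicates 1, 2, 4, 5 and 6), with 1 library per mouse. All were C57BL/6J females, made obese from 2 months of age by 4 months on a high-fat diet, in which lipids gave 45% of the energy, and then kept on their group's diet until 18 months of age. The DIO group stayed on that diet. In the DIO + DHA diet, 15% of the lipids by weight were exchanged for an n-3 oil from fish that held 683.4 mg DHA and 46.7 mg EPA per g. According to the study's methods, the DIO diet received the same tocopherol mix as the oil, the mice were fasted overnight before the livers were taken, they were a subsample of a larger cohort, and the work was not blinded. All libraries carry the same batch label. There was no lean group, so the values describe obese livers only.

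Carboxylesterases are serine hydrolases that split ester bonds in lipids, drugs and other foreign compounds, and most of those in the liver are held in the lumen of the endoplasmic reticulum. Some of them release fatty acids from stored triglyceride and thereby feed the assembly of very-low-density lipoprotein (VLDL), the particle in which the liver exports triglyceride. In the mouse the genes arose by tandem duplication, so that neighbours can be close to identical in sequence.

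The libraries held 1723800 to 5690347 counts, and DIO replicate 1 was the shallowest. The members had 32 to 6731 counts per library, and the coefficient of variation of a member within a group was 1.21% to 16.2%. Levels are in CPM, a gene's count scaled to a common library total with TMM factors. Differences are the log2 change of DIO + DHA against DIO from edgeR's quasi-likelihood test. The standard error (SE) was derived from the log2 change and the F value of that test. The p-values were adjusted over all 12412 tested genes (Benjamini-Hochberg), and a gene was called at an adjusted p under 0.05. All 10 members passed the filter on low counts. The edgeR p-values set a difference against the spread between these mice, estimated for each gene with the help of all tested genes. Mice shared cages and the cage is not among the labels, so effects of cage and of diet cannot be told apart. In bulk liver RNA, fewer cells of a type and less RNA per cell cannot be told apart either.

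Of the 10 members, 5 were lower in the DIO + DHA group (Ces1b, Ces1c, Ces1d, Ces1g and Ces3a), 3 were higher (Ces2a, Ces2e and Ces3b) and 2 were not called (Ces1e and Ces1f). Among all tested genes, 7.28% were called lower and 7.89% higher, together 15.2%. The CPM ranges of the groups did not overlap in 7 of the 10 members, against 18.4% of all tested genes. The median log2 change of the members was -0.21, and that of all tested genes was 0.00. The direction therefore differed within the family: 4 of the 6 Ces1 members were lower and none was called higher, both Ces2 members were higher, and the neighbouring genes Ces3a and Ces3b went in opposite directions.

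**Figure D1:**
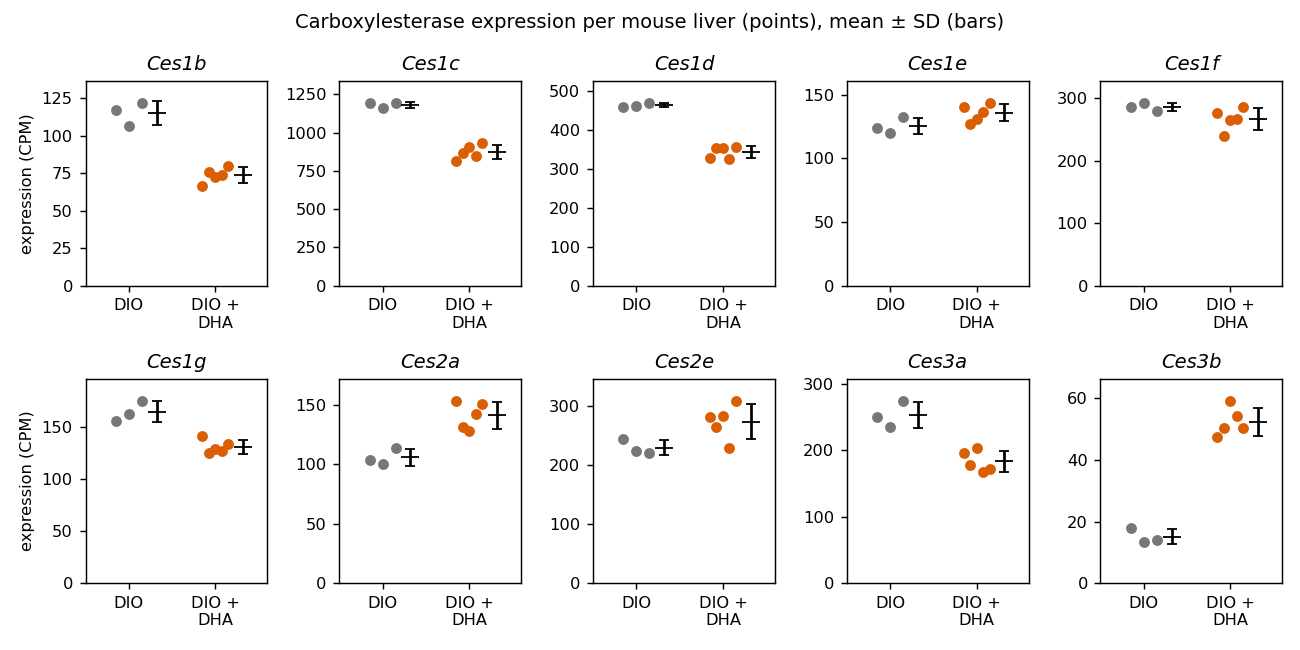
CPM of each of the 10 members in each mouse (1 point per library, with the group mean ± SD as a bar beside the points and y axes from 0), with 3 DIO and 5 DIO + DHA libraries per panel. The groups do not overlap for Ces1b, Ces1c, Ces1d, Ces1g, Ces2a, Ces3a and Ces3b and overlap for Ces1e, Ces1f and Ces2e.

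The members lie in 2 clusters on chromosome 8 of GRCm39. The Ces1 genes are all on the minus strand, from Ces1b at 93783356-93806645 to Ces1g at 94028997-94063936, with Ces1c at 93825643-93857911, Ces1d at 93892696-93924466, Ces1e at 93927846-93956247 and Ces1f at 93982864-94006375 between them. The other cluster is on the plus strand, with Ces2a at 105460635-105468266, Ces2e at 105652892-105661304, Ces3a at 105775233-105785045 and Ces3b at 105810385-105820561. The counts cover the exons of these gene models. The coding sequences of the members were 1662 to 1713 bases long. Within a subfamily they were 74.5% to 95.3% identical (17 pairs), and between subfamilies 62.9% to 65.3% (28 pairs). The closest pair was Ces3a and Ces3b with 95.3%, and the next pair of those compared below was Ces1b and Ces1c with 91.1%.

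**Figure D2:**
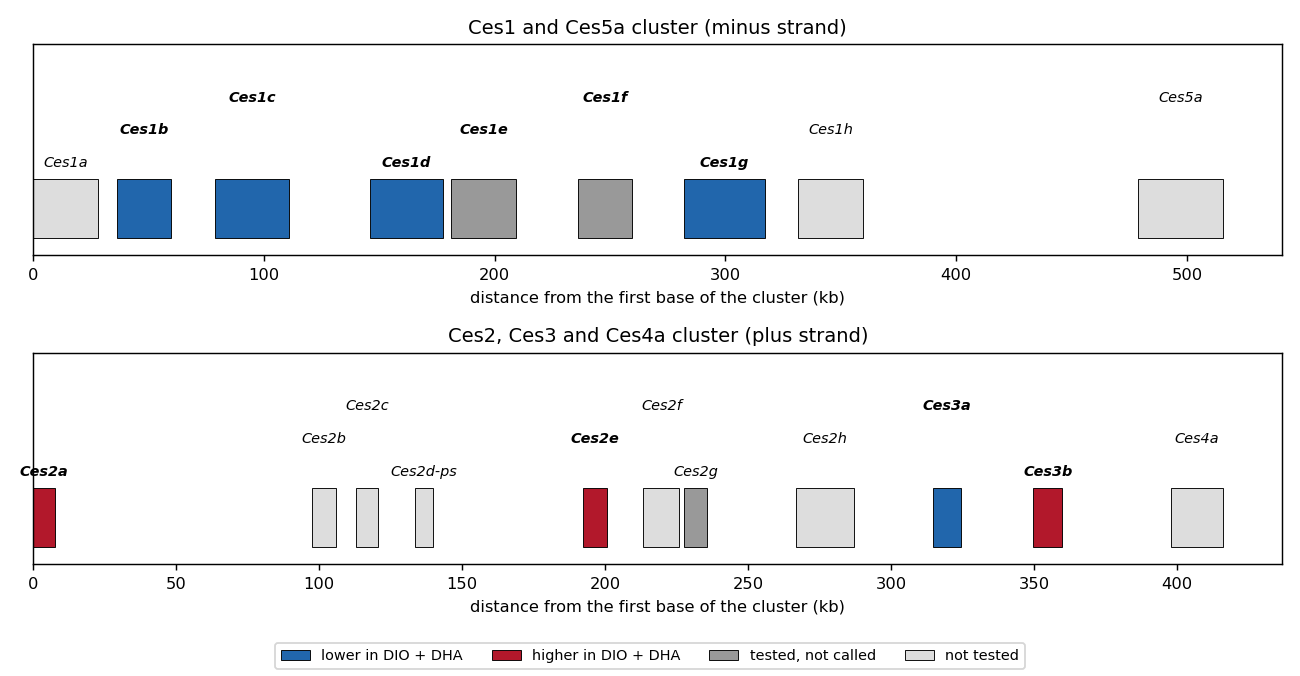
Position of the 20 carboxylesterase genes within the 2 clusters, drawn to scale as distance in kb from the first base of each cluster, with members in bold and the colour giving the call of the edgeR test. Genes called lower are 4 Ces1 genes and Ces3a, and genes called higher are Ces2a, Ces2e and Ces3b.

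Promoter sequence was read from a RefSeq table on build GRCm38.p6, whose positions differ from the GRCm39 positions above. It held 7 of the 10 members in 8 windows, Ces1b having 2 transcript starts. No sequence is shown for Ces1d, Ces1f and Ces3a. The 250 bases before the start of 4 members are given 5′ to 3′ on the gene's strand, since Ces1b and Ces1c fell together and Ces3b rose most. Ces1g, also lower, is shown with them. The printed set was thus picked with the outcome known, and the windows of Ces1e, Ces2a and Ces2e are not printed. Capitals mark matches of TTATGNAA, the letters of the D-box bound by the clock output factors Dbp, Tef and Hlf, and of TATAAA, the TATA box, each on either strand. These letters were chosen after the promoters had been seen. Ces1b lies at chr8:93079941-93080190, Ces1c at chr8:93131284-93131533, Ces1g at chr8:93337210-93337459 (all minus strand) and Ces3b at chr8:105083505-105083754 (plus strand).
Ces1b: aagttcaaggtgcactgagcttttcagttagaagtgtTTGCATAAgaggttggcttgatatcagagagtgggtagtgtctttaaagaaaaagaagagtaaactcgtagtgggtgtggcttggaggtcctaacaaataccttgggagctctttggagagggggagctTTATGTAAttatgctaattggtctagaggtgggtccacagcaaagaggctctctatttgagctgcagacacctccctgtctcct
Ces1c: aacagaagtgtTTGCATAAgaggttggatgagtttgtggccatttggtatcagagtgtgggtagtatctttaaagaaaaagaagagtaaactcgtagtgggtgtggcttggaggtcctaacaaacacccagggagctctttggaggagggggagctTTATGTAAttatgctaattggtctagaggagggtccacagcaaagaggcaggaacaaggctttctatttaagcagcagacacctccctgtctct
Ces1g: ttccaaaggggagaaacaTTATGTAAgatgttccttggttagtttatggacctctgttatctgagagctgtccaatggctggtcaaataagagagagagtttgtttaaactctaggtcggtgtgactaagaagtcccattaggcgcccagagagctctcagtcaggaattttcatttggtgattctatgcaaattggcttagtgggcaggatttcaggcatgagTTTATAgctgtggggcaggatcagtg
Ces3b: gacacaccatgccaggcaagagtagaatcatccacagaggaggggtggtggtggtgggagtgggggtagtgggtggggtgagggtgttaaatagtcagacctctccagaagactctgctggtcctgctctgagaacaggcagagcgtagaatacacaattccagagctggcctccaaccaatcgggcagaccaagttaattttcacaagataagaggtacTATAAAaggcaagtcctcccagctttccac

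The Ces1b and Ces1c windows aligned over 223 bases with 94.6% identity and a longest shared run of 58 bases. TTATGNAA was present in the windows of 4 members, Ces1b, Ces1c, Ces1e and Ces1g, and in 3.07% of all 32851 promoter windows of that length. It was not in the windows of Ces2a, Ces2e or Ces3b. TATAAA was found 30 bases before the start of Ces3b and, on the other strand, 26 bases before that of Ces1g, and in 12.4% of all windows. TTGCNNAA, the letters of a CEBP site, which overlap 1 form of the D-box, matched in Ces1b, Ces1c, Ces2a and Ces2e and in 9.56% of all windows. AGGTCA, a nuclear receptor half-site, matched in Ces2a and in 14% of all windows. CACGTG (6.02% of all windows), CAAAGTCCA (0.384%) and GTTAATNA (2.33%) matched in no window of a member. The D-box letters were present both in members that fell and in Ces1e, which was not called. A match describes letters in the window and was not tested as a binding site.

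Ces1c, which encodes the carboxylesterase that the liver secretes into plasma, was the most abundant member. It was at 1194, 1159 and 1194 CPM in the DIO mice and at 814, 868, 907, 849 and 933 CPM in the DIO + DHA mice. Every DIO + DHA mouse was below every DIO mouse. The log2 change was -0.44 (SE 0.06, adjusted p = 1.7e-07, edgeR), with a 95% interval of -0.558 to -0.313. Ces1c made up 40.2% of the summed CPM of the 10 members in the DIO group and 35.3% in the DIO + DHA group.

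Ces1b was at 117, 107 and 122 CPM in the DIO mice and at 66.3, 76.1, 72.8, 74.0 and 80.1 CPM in the DIO + DHA mice, again without overlap. Its log2 change of -0.64 (SE 0.09, adjusted p = 2.76e-08, edgeR) was the largest decrease in the family. The ratio of Ces1b to Ces1c within a library, which does not depend on the scaling between libraries, differed by -0.205 on the log2 scale between DIO + DHA and DIO, with means of -3.36 ± 0.074 (SD, n = 3) and -3.56 ± 0.059 (SD, n = 5). An exact permutation test (two-sided, all 56 ways to split the 8 mice) gave p = 0.0179, the smallest that these groups allow, and 0.0268 after adjustment over the 6 pairs compared in this way. Among these pairs, Ces3a/Ces3b and Ces3b/Ces1c had their exact p fixed at its smallest value by the opposite directions of their genes. Their place in the adjustment lowers the adjusted p of Ces1b/Ces1c, also with 1 mouse left out. With 1 mouse left out the difference was -0.244 to -0.171, with an adjusted exact p of 0.0429 without DIO + DHA replicate 2 and of 0.0571 or 0.0714 without any other mouse, where 35 or 21 splits remain. Each time the unadjusted p was the smallest possible, so the adjusted p moved only with the number of splits and with the other pairs.

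Ces1d, the triglyceride hydrolase that supplies fatty acids for VLDL assembly, was at 457, 462 and 468 CPM in the DIO mice and at 328, 353, 353, 325 and 356 CPM in the DIO + DHA mice. All 5 treated mice were below the 3 others, with a log2 change of -0.43 (SE 0.07, adjusted p = 8.67e-07, edgeR). No change of Ces1d relative to Ces1c was detected. The log2 ratio of Ces1c to Ces1d was 1.35 ± 0.029 (SD, n = 3) and 1.35 ± 0.042 (SD, n = 5), with an exact permutation p of 0.857.

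Ces1g, another triglyceride hydrolase of the liver, was at 155, 162 and 175 CPM in the DIO mice and at 141, 125, 128, 127 and 134 CPM in the DIO + DHA mice. The groups did not overlap, and the log2 change was -0.33 (SE 0.08, adjusted p = 0.00109, edgeR). With limma-voom at a log-odds B above 0, the criterion of the study's methods, Ces1g was not called, while its adjusted p in the same limma-voom fit was 0.00192.

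Ces1e and Ces1f were not called. Ces1e, which retains beta-glucuronidase in the endoplasmic reticulum, was at 124, 120 and 132 CPM against 140, 127, 131, 137 and 143 CPM, with a log2 change of 0.11 and a 95% interval of -0.040 to 0.269 (adjusted p = 0.396, edgeR). Ces1f, also known as triglyceride hydrolase 2, was at 286, 293 and 280 CPM against 277, 240, 266, 267 and 286 CPM, with a log2 change of -0.10 and an interval of -0.236 to 0.042 (adjusted p = 0.429, edgeR). The groups overlapped for both genes. The log2 ratio of Ces1d to Ces1f fell from 0.692 ± 0.044 (SD, n = 3) to 0.362 ± 0.124 (SD, n = 5), a difference of -0.331 (exact permutation p = 0.0179, adjusted 0.0268). The adjusted p is here too lowered by Ces3a/Ces3b and Ces3b/Ces1c, whose exact p was fixed. With 1 mouse left out the difference was -0.379 to -0.301, and the adjusted exact p was 0.0429 without DIO + DHA replicate 2 and 0.0714 or 0.0857 without any other mouse.

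Ces2a, which hydrolyses di- and triglycerides in hepatocytes, was at 104, 100 and 114 CPM in the DIO mice and at 154, 131, 128, 142 and 151 CPM in the DIO + DHA mice. Every treated mouse was above every DIO mouse, and the log2 change was 0.42 (SE 0.08, adjusted p = 0.000125, edgeR). Ces2e was at 245, 225 and 222 CPM and at 282, 264, 283, 230 and 310 CPM, so that DIO + DHA replicate 5 lay within the range of the DIO mice. Its log2 change of 0.26 (SE 0.08, adjusted p = 0.0146, edgeR) depended on single mice: the adjusted p was 0.0707 without DIO replicate 4, 0.0605 without DIO replicate 5 and 0.0523 without DIO + DHA replicate 6. The log2 ratio of Ces2a to Ces2e differed between the groups by 0.166, less than the SD of 0.173 in the DIO + DHA group (exact permutation p = 0.214, adjusted 0.257).

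Ces3b had the largest change of the family. It was at 18.0, 13.5 and 14.0 CPM in the DIO mice and at 47.4, 50.3, 59.2, 54.1 and 50.2 CPM in the DIO + DHA mice, from 32, 75 and 79 counts and 239, 150, 166, 231 and 230 counts. The lowest treated mouse was above the highest DIO mouse. The log2 change was 1.84 (SE 0.13, adjusted p = 1.18e-17, edgeR), with a 95% interval of 1.586 to 2.094, or a 3.58-fold higher level.

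Ces3a, the neighbour of Ces3b, was at 250, 235 and 275 CPM in the DIO mice and at 196, 178, 203, 167 and 172 CPM in the DIO + DHA mice. It fell by 0.47 on the log2 scale (SE 0.08, adjusted p = 2.59e-06, edgeR), without overlap between the groups. Both genes are liver esterases of the Ces3 subfamily. The log2 ratio of Ces3a to Ces3b was 3.78, 4.11 and 4.28 in the DIO mice and 2.05, 1.82, 1.78, 1.63 and 1.77 in the DIO + DHA mice. The difference of -2.25 gave p = 0.0179 in the same exact permutation test (adjusted 0.0268), the smallest that these groups allow. Neither gene overlapped between the groups and their directions were opposite, so the ratio had to separate the groups. This p therefore adds no evidence beyond that of each gene. With 1 mouse left out the difference was -2.388 to -2.135, and the adjusted exact p was 0.0429 without DIO + DHA replicate 2 and 0.0571 or 0.0714 without any other mouse. The unadjusted p was the smallest possible each time, so the adjusted p moved only with the number of splits and with the other pairs. Ces3b rose from 0.516% to 2.11% of the summed CPM of the members.

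**Figure D3:**
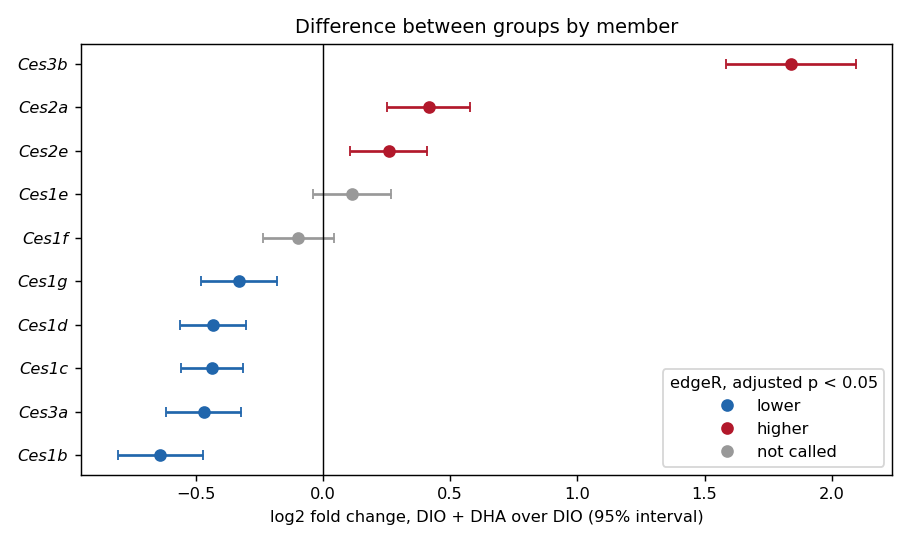
Log2 change of each member, DIO + DHA against DIO, with a line at 0. The 95% normal intervals use an SE derived from the F value of the edgeR test (3 against 5 libraries). Ces3b stands at 1.84, the other 9 members lie between -0.64 and 0.42, and the intervals of Ces1e and Ces1f include 0.

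Summed over the 10 members, the level was 2876 to 2997 CPM in the DIO mice and 2372 to 2616 CPM in the DIO + DHA mice. The means were 2941 ± 61.1 CPM (SD over 3 mice) and 2476 ± 97.9 CPM (SD over 5 mice), a ratio of 0.842. The sum of the 6 Ces1 members was 2336 ± 35.1 and 1825 ± 69.7 CPM, and their share of the family fell from 79.4% to 73.7%. Ces2a and Ces2e together were at 336 ± 11.7 and 415 ± 34.6 CPM, a share of 11.4% and 16.8%. The sum of Ces3a and Ces3b was 268 ± 20.2 and 236 ± 17.5 CPM, and here the ranges overlapped. These sums were not tested, because they are made of the genes tested above.

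**Figure D4:**
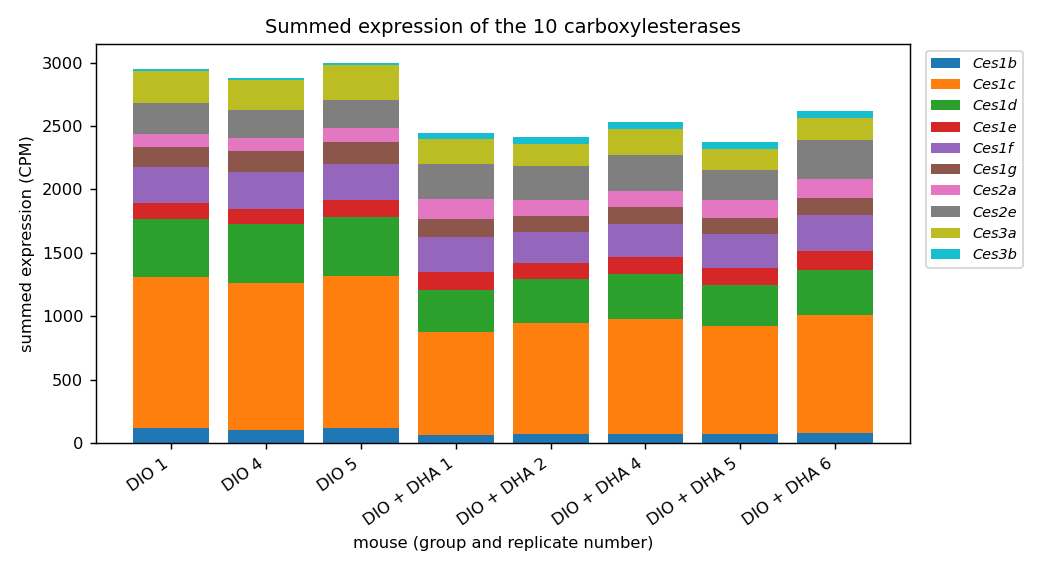
Summed CPM of the members in each of the 8 libraries, with the bars starting at 0 and split by gene. The 3 DIO libraries sum to 2876 to 2997 CPM and the 5 DIO + DHA libraries to 2372 to 2616 CPM, and the Ces1c segment is shorter in every DIO + DHA library than in any DIO library.

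Levels were also compared between the members per kb of counted exon. In the DIO group Ces1c stood first at 509 CPM per kb, followed by Ces1d at 195, Ces3a at 96.4, Ces1f at 87.1, Ces2e at 85.3, Ces1g at 68.8, Ces1b at 58.7, Ces1e at 57.3, Ces2a at 44.9 and Ces3b at 5.92 CPM per kb. The ranges of the mice overlapped between the neighbours Ces1f and Ces2e and between Ces1b and Ces1e. In the DIO + DHA group Ces1c and Ces1d again led with 376 and 145 CPM per kb, Ces1b and Ces3b were last with 37.6 and 20.4, and the ranges of each pair of neighbours between Ces2e (102) and Ces1g (54.9) overlapped. In 3′-enriched libraries the count of a gene need not grow with its length, and the rank by CPM differed from that by CPM per kb for 4 members in the DIO group (Ces1b, Ces1e, Ces1f and Ces3a) and 2 in the DIO + DHA group (Ces1e and Ces2a).

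Because only unique alignments were counted, each member was checked for stretches that occur elsewhere. Of the 80-base windows of its counted exons, 99.3% of those of Ces1f, 98.3% of Ces2e, 98.2% of Ces1d, 97.4% of Ces1g and 93.5% of Ces1e had no copy within 1 mismatch in GRCm39. The share was 83.8% for Ces1b, 83.3% for Ces1c, 82.9% for Ces2a, 69.2% for Ces3b and 68.9% for Ces3a. In the last exon block, at the 3′ end, the share was 72.7% for Ces1b, 71.8% for Ces1c, 95.6% for Ces2a, 80% for Ces3b and 63.2% for Ces3a. It was 98.5% for Ces2e and 100% for the other members. In Ces3a and Ces3b, 498 windows of each had a copy within 1 mismatch in the other gene. An exact copy was found for 13.9% of the windows of Ces3a and 13.7% of Ces3b. A read that aligns equally well to both genes was counted for neither, so the levels of these genes are uncertain. The part of such reads in the differences between the groups was not tested. The gene models of GENCODE release 39 reach further in the 3′ direction than those of release 33, which the authors counted on, by 4198 bases for Ces3a, 2778 for Ces1b, 865 for Ces1f and 314 for Ces1g, and reads in these extensions were not counted.

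**Figure D5:**
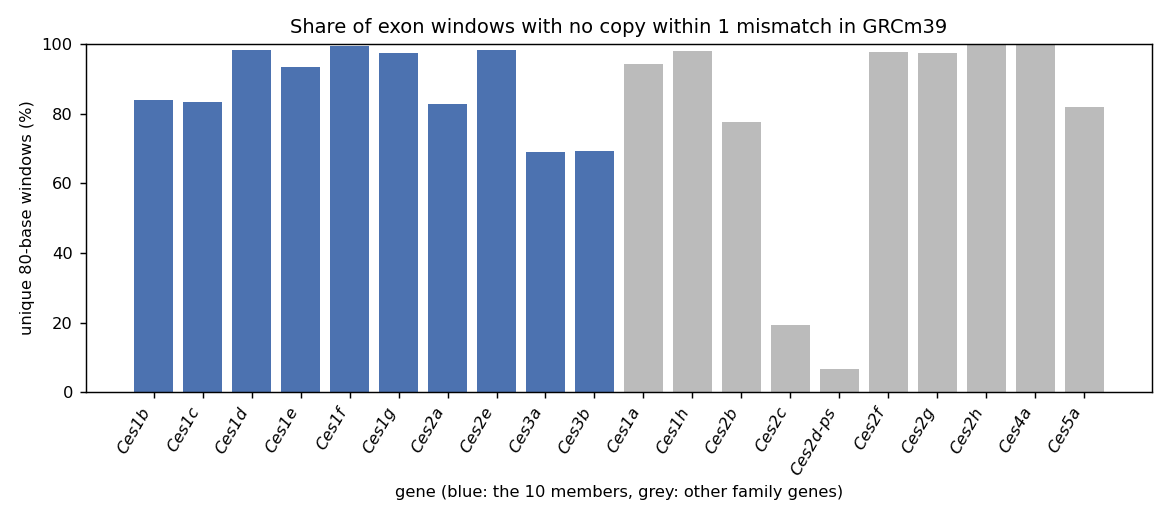
Percent of the 80-base exon windows of each carboxylesterase gene with no copy within 1 mismatch elsewhere in the genome. Among members the values run from 68.9% (Ces3a) to 99.3% (Ces1f), and Ces2c and Ces2d-ps have 19.2% and 6.63%.

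Of the 10 other carboxylesterase genes, Ces2g alone was tested, at 22.3 ± 1.20 CPM in the DIO group (SD over 3 mice) and 19.5 ± 3.28 CPM in the DIO + DHA group (SD over 5 mice), with a log2 change of -0.17 (SE 0.14, adjusted p = 0.529, edgeR). Ces1a, Ces1h, Ces2c, Ces2h and Ces4a had at most 3 counts in a library. Ces2b, Ces2d-ps, Ces2f and Ces5a had 0 counts in all 8 libraries. Over the 32809943 counts this allows up to 0.0914 CPM of uniquely aligned reads for Ces2b, Ces2f and Ces5a, counting error only. Ces2c and the pseudogene Ces2d-ps share most of their windows, and the last exon block of each held no unique window, so their counts do not tell whether they were expressed.

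Among 22 other lipid and ester hydrolases, 20 were tested and 5 were called, all higher in the DIO + DHA group (median log2 change 0.08). Of all tested genes, 7.28% were called lower and 7.89% higher. Pnpla7, a lysophospholipase, rose from 114 ± 0.891 to 211 ± 9.11 CPM (log2 change 0.88, adjusted p = 4.94e-14, edgeR). Abhd6 and Mgll, which hydrolyse monoglycerides, rose by 0.78 and 0.54 on the log2 scale (adjusted p = 1.24e-09 and 1.05e-08). The others were Lipa, the lysosomal acid lipase, and Pnpla2, which encodes the adipose triglyceride lipase, with log2 changes of 0.63 and 0.59. Pon1, the most abundant, was not called (909.5 ± 41.3 and 1002 ± 41.9 CPM, adjusted p = 0.147).

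Of 16 genes of triglyceride synthesis and VLDL assembly, 15 were tested, 3 were lower and 4 higher (median 0.13), against 7.28% and 7.89% of all tested genes. Mttp, which loads triglyceride onto apolipoprotein B, rose by 0.63 on the log2 scale (adjusted p = 7.77e-08, edgeR). Dgat2, an enzyme of the last step of triglyceride synthesis, and Lpin1, a phosphatidate phosphatase, fell by 0.44 and 0.52 (adjusted p = 4.97e-06 and 0.000192), and Lpin2 by 0.22. Apoc3 and P4hb, the most abundant, rose by 0.29 and 0.25, and the fourth higher gene, Agpat2, by 0.35. Ces1d, which releases the fatty acids for this assembly, was lower in the DIO + DHA group, in which Mttp was higher. A link between these differences was not tested.

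Of 17 nuclear receptors and factors that control carboxylesterase genes, 4 were lower and 2 higher (median -0.16), against 7.28% and 7.89% of all tested genes. Cebpb fell from 195 ± 4.99 to 94.1 ± 5.42 CPM (log2 change -1.05, adjusted p = 5.14e-17, edgeR), and Hnf4a, a master factor of hepatocytes, from 241 ± 10.95 to 167 ± 10.04 CPM (-0.53, adjusted p = 7.12e-08). Nr0b2, the repressor SHP, rose from 17.3 ± 3.07 to 38.9 ± 2.03 CPM. The bile acid receptor Nr1h4 and the drug receptor PXR (Nr1i2) fell by 0.40 and 0.46, and Nfe2l2 rose by 0.29. Rxra was not called (adjusted p = 0.849). Of 16 targets of the drug receptors CAR and PXR, to which some Ces2 genes also belong, 15 were tested. Against the 7.28% lower and 7.89% higher of all tested genes, 6 were lower and 1 was higher (median -0.12). The one was Cyp2b10, at 2.43 ± 0.967 CPM in the DIO group and 46.3 ± 5.51 CPM in the DIO + DHA group, with a log2 change of 4.39 (adjusted p = 1.14e-25, edgeR). Cyp2a5 and Gstm3 fell by 0.94 and 1.07, and the abundant Aldh1a1 and Por by 0.35 and 0.37. The called genes of this list thus went in both directions, and the list was not tested as a set.

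By Pearson's r of log2 CPM over the 8 libraries, among 6210 genes of at least 10 CPM and with the members left out, the genes most like Ces1c included Herpud1 (0.988) and Serpina3n (0.987). Those most like Ces2e were H2ax (0.964), Slc25a11 (0.962) and Rpl7a (0.960), and those most like Ces3a were Arrb2 (0.986), Aldh16a1 (0.985) and Serpind1 (0.984). Within the family, Ces1d had an r of 0.989 with Ces1c. These values describe 8 libraries that share the split into 2 groups.

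Markers of muscle, squamous epithelium, adipocytes and Kupffer cells moved with the groups. Among all tested genes, 15.2% were called. The summed CPM of 12 skeletal muscle markers was 29.8 to 34.8 in the DIO mice and 1181 to 1261 in the DIO + DHA mice, with all 12 called higher. Of 10 markers of squamous epithelium, 4 were tested and all were higher (Krt4, Krt13, Lgals7 and Krtdap), with sums of 0.563 to 1.08 and 72.7 to 82.5 CPM, and adipocyte markers (6, of which Adipoq, Cfd, Retn and Cidea were higher) summed to 1.597 to 3.94 and 36.3 to 57.8 CPM. Of 8 Kupffer cell markers 6 were lower and 1, Marco, was higher (656 to 738 and 363 to 401 CPM). Of 7 lung and intestine markers 1 was tested, Fabp2, which was higher (means of 223 and 306 CPM). Lct and Cdx2 were at 0 in all libraries. Of the rest, Sftpa1 had the highest means, 0.298 CPM in the DIO and 0.324 CPM in the DIO + DHA group. The rise in this list was thus that of Fabp2 alone. The 9 hepatocyte markers found summed to 115357 to 120967 CPM and 128463 to 140749 CPM, with Cyp2e1 lower and Apoa1, Apoa2 and Ahsg higher, so markers of the labelled tissue were present in every library. The part of these shifts in the carboxylesterase differences was not tested. With TMM factors computed without the markers of other tissues, the members again gave 5 lower and 3 higher calls. This setting changes only the scaling between libraries, so it does not speak to the cell types in them.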

How the data were processed

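The authors purified poly(A) RNA from liver, made 3′-enriched cDNA by an adapted SCRB-seq protocol with molecular identifiers, checked reads with FastQC 0.11.8, trimmed them, aligned them to GRCm39 with STAR 2.7.9a and ran featureCounts 1.6.0 over exons of GENCODE release 33. What they deposited are raw counts of reads for each gene, not normalized. The counting took unique alignments and ignored strand. The sources used here do not say if molecular identifiers were collapsed, so counting limits cover counting error only.

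Groups came from the sample titles. Names came from GENCODE release 39, which held 56323 of 56884 identifiers. Genes under 5 counts in over 50% of both groups' libraries were dropped, following the study's methods, and 12412 stayed. TMM scaling and the quasi-likelihood test of edgeR 4.0.16 in R 4.3.3 were used (robust, group as the only term). The standard error was taken as the size of the log2 fold change over the square root of F. Intervals of log2 fold changes are 95% normal intervals from it and do not allow for the small number of libraries. Ratios of a pair of members were taken per library on counts plus 0.5. Alternatives used DESeq2 1.42.0 and limma 3.58.1, other scalings, filters and thresholds, the replicate number as a block, and each library left out in turn. The tests were tested on simulated data, and the outcome is not reported here.

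Named were all members, the other carboxylesterases with a count, and of each context list the 3 called genes with the smallest p and the 2 most abundant, plus the 3 genes most like the most abundant member of each subfamily, members left out, of which 1 is not reported here. Genes that complete a count of 5 or fewer were named after their values were seen. Members and lists were chosen with earlier results of these data known. Window copies were searched in the GRCm39 genome with 80-base windows, the length of the longer read.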

Additional observations from a re-analysis of the deposited data

How the results depend on the processing

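Over 18 alternatives for each of the 10 members, 173 of 180 log2 fold changes kept their direction and their side of the threshold, 7 lost the call and 0 reversed. Of the 7, 6 were of Ces2e, called in 12 of 18 alternatives with log2 fold changes of 0.20 to 0.31, and 1 was Ces1g, not called with limma-voom at B above 0. That criterion gave 4 lower and 2 higher members, and an adjusted p under 0.01 gave 5 and 2. Over all tested genes, 1883 were called by edgeR at an adjusted p under 0.05, 1225 under 0.01 and 860 by limma-voom at B above 0. Of 90 counts of called members, other carboxylesterases and hydrolases, 81 equalled the reported count. Lower members were 4 or 5, higher members 2 or 3 and higher hydrolases 5 or 6. Of 54 alternatives of the pair ratios, 23 kept direction and call, 28 lost the call and 3 reversed. All 28 left out 1 library, which leaves 21 or 35 splits for the exact permutation test. In Ces3a/Ces3b and Ces3b/Ces1c the genes of the pair separated the groups in opposite directions, which fixed the exact p at its smallest value. Their place in the adjustment lowered the adjusted p of Ces1b/Ces1c and Ces1d/Ces1f, also with 1 library left out. The unadjusted p was then again the smallest possible in Ces3a/Ces3b, Ces3b/Ces1c and Ces1b/Ces1c. The called pairs then differed by -2.388 to -2.135 (Ces3a/Ces3b), -0.379 to -0.301 (Ces1d/Ces1f), -0.244 to -0.171 (Ces1b/Ces1c) and 2.153 to 2.344 (Ces3b/Ces1c), with adjusted exact p of 0.0429 without DIO + DHA replicate 2 and 0.0571 to 0.0857 without any other library. The reversed values were of Ces1c/Ces1d, which ranged from -0.018 to 0.010 and was 0.010, 0.005 and 0.008 without DIO replicate 1 and DIO + DHA replicates 1 and 2. The mice of the 2 groups differ, and libraries with the same replicate number did not deviate together (correlations of -0.008, -0.020 and -0.045 for replicates 1, 4 and 5). With the replicate number as a block, 5 members were lower and 2 higher, 1538 genes were called in all, and Ces2e, at a log2 fold change of 0.20, had an adjusted p of 0.119 (edgeR). Depth limits Ces3b most, with 32 counts in DIO replicate 1.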

Other observations

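The factors that bind the D-box, whose letters were found in the promoter windows of Ces1b, Ces1c, Ces1e and Ces1g, were looked up after those letters had been seen. Tef fell from 87.0 ± 5.64 to 54.5 ± 3.90 CPM, a log2 change of -0.66 (SE 0.09, adjusted p = 7.71e-08, edgeR), and the groups did not overlap. Hlf fell from 43.7 ± 3.28 to 30.7 ± 2.61 CPM (-0.49, adjusted p = 0.000802). Dbp, at 9.25 ± 5.65 and 4.58 ± 0.895 CPM, was not called (-0.74, adjusted p = 0.0542), with 1 DIO mouse at 15.8 CPM. Nfil3, a repressor that binds the same element, rose from 14.5 ± 2.96 to 20.3 ± 4.97 CPM (0.52, adjusted p = 0.0358), with overlap between the groups. These factors follow the time of day, the hour of sampling is not among the labels, and their part in the levels of the Ces1 genes was not tested.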
